A study of Mus musculus with 89 samples.

Results

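The mitochondrially encoded transcripts were taken as every gene row whose symbol starts with mt- in the 2 deposited tables of molecule counts, one for clumps and one for single cells of the mouse jejunum. They numbered 30 of the 29100 gene rows in either table, with 29 rows in the clump table and 30 in the cell table. All samples came from C57BL/6 mice and carried no genetic change or treatment. They were 3 months old by the labels, except for 3 plates of cell mouse 2 labelled 4 months. Clumps are groups of cells left attached by a mild EDTA dissociation, and the table held 45 plates of clumps sorted by DNA content. The gate labelled 4n (pairs) gave 27 plates from mice 1 to 5, the gate labelled h4n (larger clumps) gave 14 plates from mice 1, 4 and 5, and the gate labelled h2n gave 4 plates from mouse 6. The single cells came from a dissociation with a longer warm EDTA step and repeated shaking and filled 44 plates of mice 1 to 4, sorted for CD24 or Epcam, for CD45Epcam (mouse 3) or CD54Epcam (mouse 4), for onlyEpcam, for EpcamLow with high Cd24, for Epcam with low Cd24, or with no gate given (5 plates each of mice 1 and 2). The mouse numbers were used within a table only, since the labels do not say whether a mouse gave both clumps and cells.

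Mitochondrial DNA is a small circular genome present in many copies per cell. It encodes a pair of ribosomal RNAs, a set of transfer RNAs and the hydrophobic core subunits of complexes I, III, IV and V of oxidative phosphorylation, whose other subunits are encoded in the nucleus. Both strands are transcribed as long precursors that are cut into the mature RNAs, most of which receive a short poly(A) tail, so that they are caught by the poly(T) primers of the MARS-seq protocol used here. Absorptive enterocytes of the jejunum arise in the crypts, move up the villus and are shed at its tip, and they carry out energy-demanding nutrient uptake.

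The values are UMIs, unique molecule counts per gene and well of a plate. Wells with over 500 UMIs were used, with no limit on the mt- share, which left 7689 of 17162 clump wells and 11610 of 16850 cell wells. The same well barcodes occurred on the plates of each table, as the wells of a plate design, and no plate was identical to another. Plates held 94810 to 4153056 UMIs in the clump table and 109338 to 2348338 in the cell table, with a median of 1959 UMIs per clump and 2065 per cell. Clump mouse 5 stood apart, with 25.5% of its UMIs in mt- rows against 6.94 to 9.01% in clump mice 1 to 4, and the main results that rest on it are given with and without it. Differences between groups were tested with the mouse as the replicate, on UMIs summed per mouse and group (at least 5 wells per sum), using edgeR's quasi-likelihood test with Benjamini-Hochberg adjustment over all genes tested and a threshold of 0.05. No p-value is given for the mt- sum. Counts are of molecules in a well, and fewer cells of a type and less RNA per cell cannot be told apart. Doublets were not called.

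The 3′ ends of the genes below are shown because the reads of this protocol fall near the 3′ end and because for several genes the same letters stand at the 3′ end of a nuclear copy. The positions are of the GRCm38 build with its GENCODE annotation, and each run gives the last 30 bases of the gene, or of its alignment to the copy, 5′ to 3′ on the strand of the transcript. A capital marks a base of the copy that differs from the mitochondrial gene. The large ribosomal RNA mt-Rnr2 lies at chrM:1094-2675 on the plus strand, the small ribosomal RNA mt-Rnr1 at chrM:70-1024, the complex IV subunit mt-Co1 at chrM:5328-6872, mt-Co2 at chrM:7013-7696, the complex V subunit mt-Atp6 at chrM:7927-8607, and the complex I subunits mt-Nd3 at chrM:9459-9806 and mt-Nd2 at chrM:3914-4951. The copies are annotated on the minus strand of chromosomes 1 and 2: Gm29216 at chr1:24615706-24616197, Gm28661 at chr1:24614885-24615565, Gm10925 at chr1:24613974-24614651, Gm28438 at chr1:24612775-24613119 and Gm13339 at chr2:22590024-22590533.
mt-Rnr2: atacgtacaccctctaacctagagaaggtt
mt-Rnr1: aagcatactggaaagtgtgcttggaataat
mt-Co1: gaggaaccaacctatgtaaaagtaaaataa
Gm29216: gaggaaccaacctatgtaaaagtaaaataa
mt-Co2: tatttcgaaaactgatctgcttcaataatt
Gm28661: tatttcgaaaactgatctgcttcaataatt
mt-Atp6: ctagtaagcctatatctacatgataataca
Gm10925: ctagtaagcctatatctacatgataataca
mt-Nd3: tgaacacaaaaaggattagaatgaacagag
Gm28438: tgaacacaaaaaggattagaatgaacagag
mt-Nd2: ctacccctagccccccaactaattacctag
Gm13339: ctacccctagccccccaactaattaTctag
Of these pairs, the runs of mt-Co1, mt-Co2, mt-Atp6 and mt-Nd3 had no mismatch with the copy, and those of mt-Nd2 and Gm13339 differed at 1 base. A second copy of mt-Co1, Gm13340 at chr2:22588103-22589647 on the minus strand, ended in the same 30 bases as the gene.

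The ribosomal RNAs made up most of the mt- UMIs. In wells with over 500 UMIs, mt- rows held 9.38% of all UMIs of clumps and 33.7% of those of cells, and the 2 ribosomal RNAs held 68.0% of the mt- sum in clumps and 84.1% in cells. The large ribosomal RNA mt-Rnr2 alone held 46.4% of the mt- sum in clumps and 55.2% in cells, and mt-Rnr1 held 21.6% and 28.9%. Per kilobase of gene, mt-Rnr2 stood at 29.3% of the mt- sum in clumps and 34.9% in cells, ahead of mt-Rnr1 at 22.6% and 30.3%.

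As plain shares of the mt- sum, mt-Cytb led the messenger RNA rows in clumps with 8.88%, before mt-Nd1 (8.39%) and mt-Nd4l (6.39%). In cells mt-Nd4l led with 3.96%, before mt-Cytb (3.68%) and mt-Nd1 (2.71%). Reads near the 3′ end need not grow in number with gene length, so a value per kilobase can be high because a gene is short. Per kilobase, the complex I subunit mt-Nd4l had the highest level of these rows, 21.5% of the mt- sum in clumps and 13.3% in cells. This short gene at chrM:9877-10173 sat well above the other complex I subunits, of which mt-Nd1 (chrM:2751-3707) had 8.77% and 2.83% per kilobase, mt-Nd3 2.65% and 1.17%, mt-Nd2 2.01% and 1.28%, and mt-Nd5 (chrM:11742-13565) 0.53% and 0.57%. The only complex III subunit of this genome, mt-Cytb at chrM:14145-15288, had 7.76% per kilobase in clumps and 3.22% in cells. For complex IV, mt-Co1 had 1.87% and 1.17%, and mt-Co2 had 0.623% and 0.413%. For complex V, mt-Atp8 (chrM:7766-7969) had 3.08% and 1.82%, and mt-Atp6, which overlaps mt-Atp8 over 43 bases, had 0.517% and 0.359%. The places of mt-Co1, mt-Co2, mt-Atp6 and mt-Nd3 in this order are uncertain, because nuclear copies share their sequence. With the UMIs of the copies added, at their ratio to the gene over all wells, mt-Co2 would stand at 35.2% of the mt- sum per kilobase in clumps, above mt-Nd4l. In cells it would stand at 13.4%. For mt-Co1 the values would be 20.3% and 11.7%, and for mt-Atp6 18.9% and 11.8%. Not all genes of the mitochondrial genome were analysed here, so shares and orders are among the rows analysed.

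The remaining 18 rows were mt-Nd6 and 17 transfer RNAs. The only subunit gene of the other strand, mt-Nd6 at chrM:13552-14070, had 1716 UMIs in clumps (0.0494% of the mt- sum) and 2495 in cells (0.0193%). The transfer RNA rows together had 2477 UMIs in clumps (0.0714%) and 3655 in cells (0.0283%). The highest was mt-Tt with 937 UMIs in clumps and mt-Tm with 1341 in cells, and the lowest row of the cell table, mt-Ty, had 1 UMI. As most of these rows were near 0, they are given below only where they passed the filter on low counts.

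For 4 genes more UMIs stood in the rows of nuclear copies than in the mitochondrial row. For mt-Co2, the 2 copies of at least 95% identity (Gm28661 and Gm13341) held 55.6 UMIs per UMI of the gene in clumps and 31.4 in cells. For mt-Atp6, Gm10925 held 35.7 and 32.0. For mt-Co1, Gm29216 and Gm13340 together held 9.84 and 8.96, and for mt-Nd3, Gm28438 held 1.09 and 1.16. For mt-Nd2 and mt-Nd5 the copies held fewer UMIs than the gene, with 0.192 and 0.0836 copy UMIs per UMI for mt-Nd2 (Gm13339) and 0.0490 and 0.0436 for mt-Nd5 (Gm4076 at chr13:85126550-85127514, minus strand).

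The share of each gene that is repeated in its copies was also counted. Of all 66-base windows of the gene, the read length used, 99.5% of those of mt-Co2 and of mt-Atp6 were found unchanged in a copy, 97.9% of those of mt-Nd3, 43.9% of those of mt-Co1, 6.58% of those of mt-Nd2 and 1.19% of those of mt-Nd5. The order was not that of the copy UMIs, since mt-Nd3 stood above mt-Co1 here and below it there. No copy of at least 95% identity and 100 aligned bases was found among annotated transcripts for the ribosomal RNAs, mt-Nd1, mt-Nd4l, mt-Atp8, mt-Nd6 or mt-Cytb, and copies outside annotated transcripts were not searched. With the UMIs of the 8 copies added, the mitochondrial share rose from 9.38 to 15.5% in clumps and from 33.7 to 45% in cells. Whether the copies are themselves transcribed was not tested, and the levels of mt-Co1, mt-Co2, mt-Atp6 and mt-Nd3 are therefore uncertain.

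**Figure D1:**
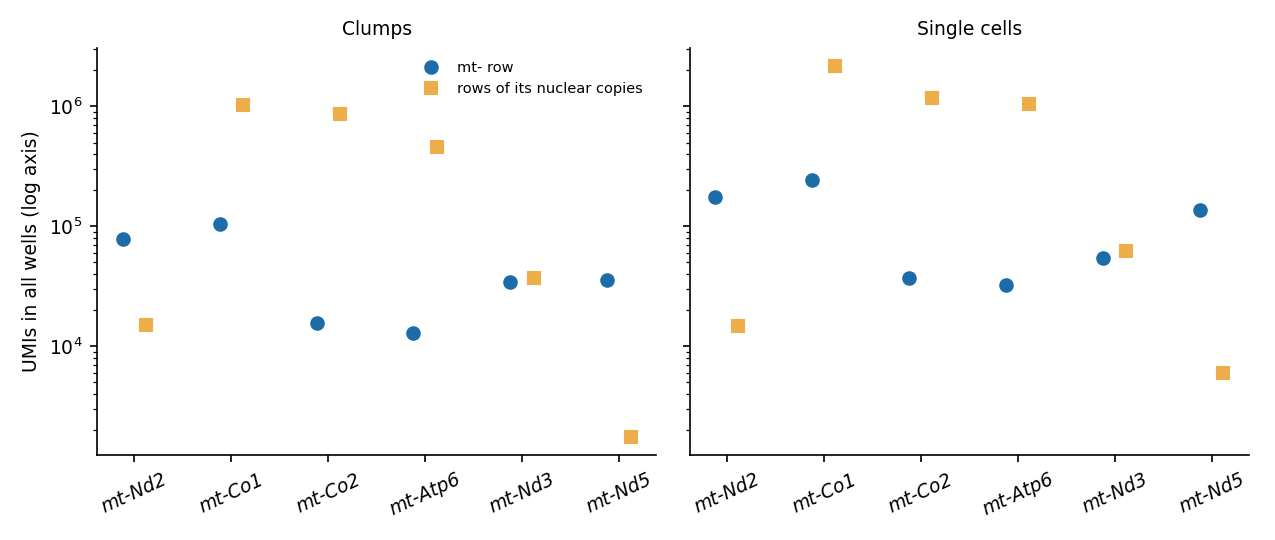
UMIs over all wells in the mt- row and in the rows of its nuclear copies, for clumps and for single cells, on a log axis. The copy rows exceed the mt- row for mt-Co2, mt-Atp6, mt-Co1 and mt-Nd3, and stand far below it for mt-Nd5.

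The mt- share was higher in villus tip than in crypt clumps of each mouse. Clumps were given a zone by 70 landmark genes of the enterocytes (30 crypt, 10 mid-villus, 30 tip, none of them an mt- row), which placed 6910 of the 7689 clumps with at least 10 landmark UMIs (89.87%), 3563 as crypt, 2062 as mid-villus and 1285 as tip. Without mouse 6, which entered no comparison, 3428, 1963 and 943 were compared. In crypt clumps the mt- share of all UMIs was 5.01, 5.20, 5.54, 6.69 and 20.4% in mice 1 to 5. At mid-villus it was 10.7, 7.67, 8.34, 11.5 and 24.7%, and at the tip 12.2, 13.6, 10.1, 12.0 and 25.7%. Tip was above crypt and above mid-villus in 5 of 5 mice, and crypt and tip overlapped only through mouse 5. The zones pooled pairs and larger clumps, which in mouse 4 differed in mt- share, and these shares were not split by gate. Crypt clumps of mouse 4 held 19353937 UMIs, while its pairs of all zones held 632217, and its tip value rested on 39 clumps. The ratio of tip to crypt within a mouse was 1.98 ± 0.547 (SD, n = 5), and it ranged from 1.26 in mouse 5 to 2.62. Without mouse 5 it was 2.17 ± 0.422 (n = 4).

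The ribosomal RNAs held most of this difference, at 5.27% of all UMIs in crypt and 11.0% in tip clumps (means over mice), and without mouse 5 at 3.19% and 8.61%. mt-Rnr2 had 1.25, 2.10, 1.25, 3.40 and 8.70% of all UMIs in crypt clumps of mice 1 to 5 and 4.29, 6.76, 3.36, 6.36 and 13.7% in tip clumps. mt-Rnr1 had 0.975, 1.60, 1.18, 1.01 and 4.86% in crypt clumps and 2.94, 4.83, 3.23, 2.68 and 6.93% in tip clumps. Both were higher at the tip in 5 of 5 mice, by 2.56 ± 0.810 times for mt-Rnr2 and 2.57 ± 0.657 times for mt-Rnr1. The ribosomal RNAs together took 58.4% ± 13.1 of the mt- sum in the crypt, 64.6% ± 13.1 at mid-villus and 73.1% ± 10.6 at the tip (SD, n = 5 mice), and tip exceeded crypt in 5 of 5. Without mouse 5 these parts were 56.4% ± 14.2, 62.3% ± 13.9 and 71.2% ± 11.2 (n = 4).

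The messenger RNAs together differed less, at 3.30% in crypt and 3.68% in tip clumps. Their summed share of all UMIs was 1.26 ± 0.386 times as high at the tip as in the crypt, higher in 4 of 5 mice, and 0.920 ± 0.119 times as high at the tip as at mid-villus, higher in 2 of 5. mt-Co1, the catalytic core of complex IV, had 0.12, 0.0813, 0.140, 0.291 and 0.363% of all UMIs in crypt clumps of mice 1 to 5 and 0.370, 0.264, 0.407, 0.471 and 0.485% in tip clumps, higher in each mouse. mt-Nd1 had 0.574, 0.372, 0.604, 0.838 and 1.24% in crypt clumps and 0.876, 0.389, 0.523, 0.722 and 0.797% in tip clumps, so that only mice 1 and 2 were higher at the tip. mt-Cytb had 0.782, 0.421, 0.854, 0.534 and 3.34% in crypt clumps and 1.44, 0.545, 0.904, 0.824 and 2.25% in tip clumps, with mouse 5 going the other way. For mt-Atp6, mt-Atp8, mt-Nd2 and mt-Nd3 the mice differed more than the zones, as in mt-Atp6, which ran from 0.000741 to 0.0813% of all UMIs in the crypt clumps of mice 1 to 5. With the UMIs of its copy Gm10925 added, mt-Atp6 ran from 0.314 to 3.28% in these clumps. Within mice the tip was above the crypt in 5 of 5 for mt-Atp8, 4 of 5 for mt-Atp6, 3 of 5 for mt-Nd2 and 2 of 5 for mt-Nd3.

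**Figure D2:**
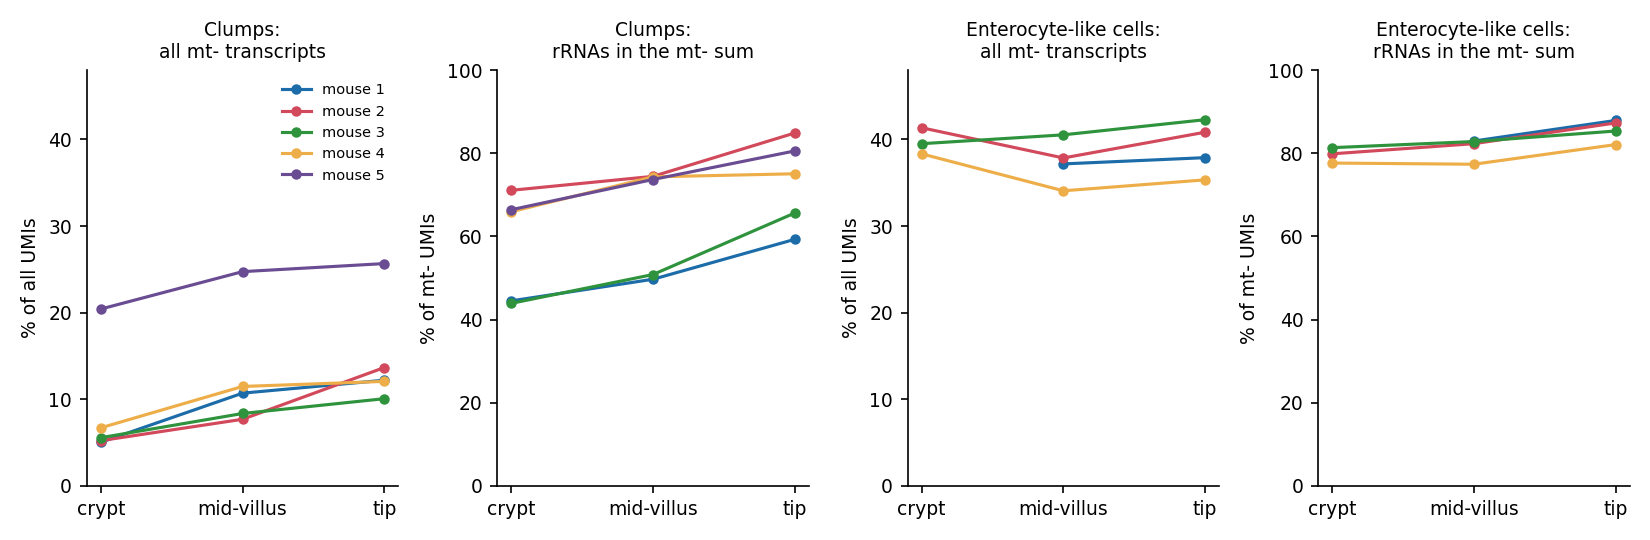
Percent of UMIs in mt- rows, and percent of the mt- sum in the ribosomal RNAs, by zone in clumps (5 mice) and in enterocyte-like single cells (4 mice), each line 1 mouse. In clumps the mt- share rises from crypt to tip in each mouse, with mouse 5 above the others at 20.4 to 25.7%, and in enterocyte-like cells it lies between 34.1 and 42.3%.

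In the fit across all genes, 15 of the 30 members passed the filter on low counts and 2 rose at the tip relative to the crypt, against 25.8% of all 6660 genes tested that were called higher. These were mt-Co1 (log2 fold change 1.37 ± 0.53 SE, adjusted p = 0.0317) and the transfer RNA mt-Tm (3.43 ± 0.94, adjusted p = 0.00427). mt-Rnr1 had a log2 fold change of 1.53 ± 0.66 with an adjusted p of 0.0558, and mt-Rnr2 1.48 ± 0.76 with 0.105. The median over the 15 was 0.57 against -0.10 over all genes. With the mouse as a block in the fit, 11 of the 15 rose, against 31.1% of all genes. These were both ribosomal RNAs (mt-Rnr1 1.80 ± 0.24, adjusted p = 7.77e-08), mt-Co1 (1.69 ± 0.23, adjusted p = 2.1e-07), mt-Nd5, mt-Nd4l, mt-Nd6, mt-Atp8, mt-Cytb, mt-Nd2, mt-Co2 and mt-Tm, while mt-Nd1 stood at 0.40 ± 0.21 (adjusted p = 0.0945), mt-Nd3 at 0.43 ± 0.20 (0.0586), mt-Atp6 at 0.22 ± 0.36 (0.591) and mt-Tt at -0.70 ± 0.40 (0.124). Without mouse 5, the unblocked fit called 6 members, and without mouse 1, 2 or 3 it called 1. The mt-Co1 call was lost under 10 alternatives, among them DESeq2 and each of these 3 mice left out, and was kept under 8.

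Depth moved with the zone. The median UMIs per well were 3564 in crypt, 1620 in mid-villus and 1396 in tip clumps (means over mice), and the tip was at 0.432 ± 0.119 of the crypt, lower in 5 of 5 mice. Within wells of over 5000 UMIs the mt- share was 5.92% in crypt clumps and 10.7% in tip clumps, in those of over 2000 and up to 5000 UMIs 8.85% and 10.5%, and in those of over 1000 and up to 2000 UMIs 14.7% and 14.5%, while in those of over 500 and up to 1000 UMIs it was 12.95% and 15.6%. These shares pool wells of mice that differ in depth and mt- share. Within mice, the tip was above the crypt in 2 of the 2 mice with at least 5 wells in both zones in the deepest of these bins (1.48 and 2.20 times), in 5 of 5 in the next (1.18 to 1.96), in 3 of 5 in wells of over 1000 and up to 2000 UMIs (0.569 to 2.72) and in 4 of 5 in the shallowest (0.959 to 2.15). In wells of 1000 to 3000 UMIs the median log2 fold change over the 12 genes described singly was -0.03, and 1 member was called. The part of depth in the difference was not tested further.

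From crypt to mid-villus, 0 of the 15 members tested changed in edgeR's unblocked fit (the smallest adjusted p was 0.131, 0 at an unadjusted p under 0.05, and 0 by DESeq2), against 42.9% of all genes. This contrast shares its crypt sums with the one above. With the mouse as a block 7 rose, against 26% of all genes, among them mt-Rnr1 (0.92 ± 0.23), mt-Rnr2 (0.81 ± 0.23) and mt-Co1 (0.93 ± 0.23). Without mouse 5 the unblocked count was 1.

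The makeup of the mt- sum differed for 1 gene of the 12 compared between tip and crypt. mt-Nd1 held 11.4, 7.14, 10.9, 12.5 and 6.07% of the mt- sum in crypt clumps and 7.19, 2.85, 5.20, 5.99 and 3.11% in tip clumps of mice 1 to 5, lower in each mouse (means 9.62 and 4.87%, exact permutation test, two-sided, unadjusted p = 0.0238, smallest p possible 0.00794). Between mid-villus and crypt, 0 of 12 genes passed. This test did not use that both zones came from the same mice. Within mice, both ribosomal RNAs took a larger part of the mt- sum in tip than in crypt clumps in 5 of 5, and a smaller part was seen in 5 of 5 for mt-Nd1, mt-Nd2, mt-Co2, mt-Atp6, mt-Nd3 (ratios of 0.371 to 0.588), mt-Nd4l, mt-Nd5 and mt-Cytb (mean ratio 0.645). The part of mt-Co1 was higher in 4 of 5 and that of mt-Atp8 in 1 of 5.

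Nuclear genes for the same complexes were mostly lower at the tip. Of the complex I subunits encoded in the nucleus, 35 were tested and 28 fell from crypt to tip (0 rose, median log2 fold change -1.34), among them Ndufa6 (-0.70 ± 0.24, adjusted p = 0.0169), while Ndufb9 stood at -0.58 ± 0.26 (adjusted p = 0.0653). For complexes III, IV and V, 8 of 9, 9 of 11 and 13 of 16 fell and 0 rose, with Uqcrq at -1.04 ± 0.24 (adjusted p = 0.00123), Uqcrh at -1.32 ± 0.38 (adjusted p = 0.00568), Cox7b at -1.40 ± 0.28 (adjusted p = 0.000355) and Atp5g3 at -1.44 ± 0.26 (adjusted p = 0.000109). The most abundant genes of complexes IV and V were not called, with Cox6a1 at -0.52 ± 0.27 (adjusted p = 0.105) and Atp5b at -0.51 ± 0.28 (adjusted p = 0.122), and with the mouse as a block 1 complex IV gene was higher. Of the nuclear proteins of the mitochondrial ribosome, 56 of 72 fell (median -1.67), among them Mrpl52 (-2.36 ± 0.39, adjusted p = 4.02e-05) but not the more abundant Mrps24 (-0.31 ± 0.22, adjusted p = 0.248). Of those that process mitochondrial RNA, 10 of 10 fell, such as the RNA stability factor Lrpprc (-2.26 ± 0.69, adjusted p = 0.00848) and its partner Slirp (-1.43 ± 0.33, adjusted p = 0.00118). Tfam, which packages and transcribes mitochondrial DNA, fell by 1.99 ± 0.60 on the log2 scale, and the single-stranded DNA binding protein Ssbp1 by 3.00 ± 0.51, 2 of 4 tested in that list. Against this stood 31.2% of all genes called lower. Of 12 biogenesis genes 1 rose, citrate synthase Cs (0.91 ± 0.24, adjusted p = 0.003), and 5 fell, while Vdac2 stood at 0.72 ± 0.33 (adjusted p = 0.0653). At mid-villus 3 of the 35 complex I genes and 48 of 72 ribosome proteins were lower than in the crypt, and with the mouse as a block 12 and 60, against 25.8% of all genes called lower without the block and 32.5% with it.

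Nuclear RNAs and stress genes moved with the zone. The nuclear RNA Neat1 rose at the tip by 4.04 ± 0.51 (adjusted p = 2.6e-06) and Malat1, itself one of the tip landmarks, by 3.96 ± 0.49. Of 10 immediate early and stress genes tested, 7 rose and 1 fell, against 25.8% and 31.2% of all genes, with Jun at 2.66 ± 0.45 (adjusted p = 6.23e-05) and Fos at 1.34 ± 0.43 (adjusted p = 0.0118). One of the 12 on this list, Atf3, is also a tip landmark. The summed share of the 12 stress genes ran from 0.0967 to 0.165% of UMIs outside the mt- rows in tip clumps and from 0.0241 to 0.131% in crypt clumps, and the 5 nuclear RNAs from 0.29 to 1.30% and from 0.0325 to 0.112%. The 12 goblet markers summed to 0.341 to 0.620% in crypt clumps and 0.741 to 3.59% in tip clumps, and the 11 Paneth markers to 0.00963 to 3.58% and 0.0136 to 0.140%. Their part in the mt- difference was not tested. Zones drawn without Malat1 were the same for 97.53% of clumps, and then 1 member was called at the tip.

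Single cells gave a second reading of the same axis. Cells were clustered on nuclear genes alone, leaving out the mt- rows and their copies, and a cluster was named only where at least 3 genes of a fixed marker list were among its 50 leading genes. Of the 12 clusters, 2 were enterocyte-like, with 4671 cells (4 enterocyte markers, Apoa4, Apob, Alpi and Apoa1) and 3023 cells (5, among them Fabp1 and Fabp2). The leading genes of the cluster of 3023 also held 2 goblet, 2 Paneth and 1 plasma or B marker, so its name is less certain. Enterocyte-like cells were zoned by the same landmarks, which include Fabp1, Fabp2, Lct and Apoa4.

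In enterocyte-like cells the mt- share at mid-villus and tip differed by less than the spread between mice. It was 37.2, 37.9, 40.5 and 34.1% of all UMIs in mid-villus cells of mice 1 to 4 and 37.9, 40.8, 42.3 and 35.3% in tip cells, higher in 4 of 4 mice by 1.04 ± 0.0248 times, while the groups overlapped. Crypt-zone cells reached the 5 cells needed in mice 2, 3 and 4 only, at 41.4, 39.5 and 38.3%, and the cluster of higher mt- share made up 37.5, 12.9 and 11.5% of them. With the nuclear copies added, the share at the tip was above mid-villus in 2 of 4 mice. This result depends on which cells are counted. Over all zoned cells of any class the share was 28.4, 30.3, 34.6 and 28.6% at mid-villus and 36.9, 36.1, 41.4 and 34.8% at the tip, and 18.5, 11.9, 19.8 and 17.5% in the crypt zone.

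As shares of the UMIs, the ribosomal RNAs were higher and the messenger RNAs together lower in tip cells. With the scaling of the fits most messenger RNAs lay near 0. The ribosomal share of the mt- sum was 83.0, 82.3, 82.8 and 77.4% in mid-villus cells and 87.9, 87.3, 85.4 and 82.1% in tip cells, higher in each mouse. The messenger RNAs together held 6.91% ± 0.580 of all UMIs at mid-villus and 5.56% ± 0.832 at the tip (SD, n = 4), lower in 4 of 4 mice. In the fit with scaling from UMIs outside the mt- rows, the 12 genes described singly ran from -0.07 to 0.57 on the log2 scale (median 0.10), and with DESeq2 from -0.04 to 0.63 (median 0.16). These 12 genes include both ribosomal RNAs. As parts of the mt- sum, mt-Rnr2 was higher at the tip (56.6 against 53.4%), and mt-Nd1 (2.36 against 3.25%), mt-Nd2 (1.15 against 1.57%) and mt-Nd5 (0.935 against 1.14%) were lower, in 4 of 12 genes compared (exact permutation test, two-sided, unadjusted p = 0.0286 each, the smallest that 4 against 4 mice allow). The groups did not overlap for these 4 genes. This test did not use that both zones came from the same mice, and within mice both ribosomal RNAs had a larger part in tip cells in 4 of 4 and all 10 messenger RNAs a smaller part in 4 of 4.

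In the fit across all genes 18 members were tested and 0 changed between mid-villus and tip (edgeR, smallest adjusted p = 0.0564, 1 at an unadjusted p under 0.05, 1 called by DESeq2), against 11.9% of all genes. With the mouse as a block 4 rose, against 14.8% of all genes: mt-Rnr1 (0.54 ± 0.11), mt-Rnr2 (0.57 ± 0.10), mt-Co1 (0.33 ± 0.12) and mt-Tm (0.82 ± 0.20). The signs of the messenger RNAs depend on the scaling. As a share of all UMIs mt-Co1 was 0.768% at mid-villus and 0.725% at the tip, higher at the tip in 1 of 4 mice, and the other 9 described singly were lower at the tip in 4 of 4, while in this fit the 12 genes ran from -0.08 to 0.57. The cells of the second cluster, which has the higher mt- share, made up 2.35 to 6.31% of the tip cells and 3.00 to 8.22% of the mid-villus cells of a mouse, and without that cluster the count stayed at 0. Only 195 of the 3023 cells of that cluster (6.45%) had the 10 landmark UMIs needed for a zone, against 4577 of all 7694 enterocyte-like cells (59.5%), so most cells of the highest mt- share are not in the zone comparison and leaving the rest out changed little of its input. When an unnamed cluster of 1221 cells led by Reg1, Dmbt1 and Mgst1 was counted as enterocyte-like, 12 members were called higher and the median log2 fold change over the 12 genes described singly was 0.94, against 0.08 without the cluster of higher mt- share. Nuclear complex I genes fell at the tip in 10 of 34, complex III in 4 of 9, complex IV in 5 of 11 and complex V in 12 of 15, with 0 rising, among them Atp5b (-0.73 ± 0.23, adjusted p = 0.0426), against 4.68% of all genes called lower. Jun (2.07 ± 0.32, adjusted p = 0.00035), Fos (1.16 ± 0.27) and Neat1 (1.76 ± 0.28) rose in the same cells. Median UMIs per cell were 2809 at mid-villus and 2996 at the tip, lower at the tip in 2 of 4 mice.

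Across cell types, the enterocyte-like cells had the highest mt- share in each mouse. It was 39.4, 51.7, 44.7 and 43.2% of all UMIs in mice 1 to 4 (44.8% ± 5.16, SD, n = 4). Goblet-like cells (252 cells, Muc2 and Clca1 among the markers) had 20.0, 15.5, 16.1 and 16.4%, tuft-like cells (291, Dclk1 and Trpm5) 17.5, 15.8, 17.4 and 15.4%, and enteroendocrine-like cells (281 cells in 2 clusters, Gip and Chga) 11.5, 10.2, 11.0 and 15.8%. Lymphocyte-like cells (1286, Cd3g and Gzmb) had 9.18, 9.01, 11.1 and 9.26%, of which mouse 1 gave only 7 cells, with 0.188% of their UMIs in the 13 lymphocyte markers against 4.16 to 5.50% in mice 2 to 4. Plasma or B-like cells (171, Jchain) had 3.86, 4.02 and 3.77% in mice 2 to 4. Every value of these classes lay below every enterocyte-like value.

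Some clusters had too few cells or mixed markers. Paneth-like cells (25, Lyz1 and defensins) had 2.85% in mouse 2 (19 cells) and 0.780% in mouse 3 (6 cells). A cluster of 140 cells led by haemoglobin genes had 3.78 and 8.39% in mice 1 and 2, where haemoglobin genes and Alas2 held 75 and 70.0% of its UMIs, but in mice 3 and 4 its 18 and 5 cells had none, and it is given no cell type there. The unnamed cells (the cluster of 1221 and one of 249 led by Cd209a and Il1b) had 23.6, 21.4, 25.1 and 21.8%. The gap between goblet-like and tuft-like cells, 17% ± 2.07 and 16.5% ± 1.08, was within the spread between mice, as was that between the lymphocyte-like (9.63% ± 0.968) and enteroendocrine-like cells (12.1% ± 2.53).

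**Figure D3:**
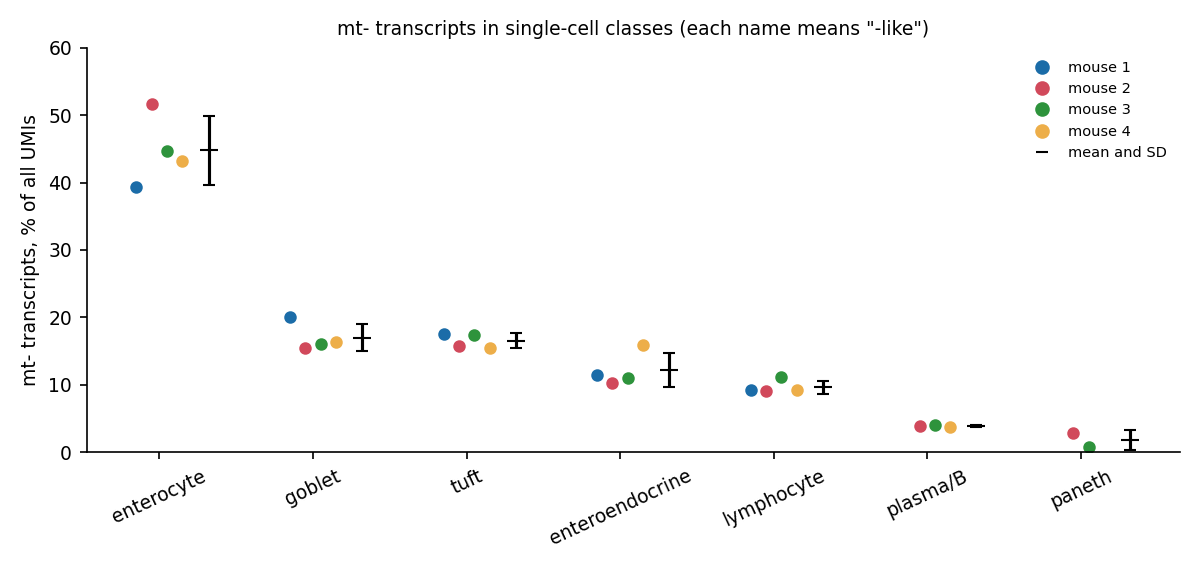
Percent of UMIs in mt- rows by named cell class, a point per mouse with the mean and the SD. The enterocyte-like values of 39.4 to 51.7% lie above those of the other classes shown, and plasma or B-like cells lie at 3.77 to 4.02%.

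Relative to enterocyte-like cells of the same mouse, the mt- share was 0.387 times as high in goblet-like cells (0.299 to 0.509), 0.374 in tuft-like (0.305 to 0.444), 0.275 in enteroendocrine-like (0.197 to 0.366) and 0.217 in lymphocyte-like cells (0.174 to 0.248), lower in 4 of 4 mice each. For plasma or B-like cells the ratio was 0.0839 (0.0746 to 0.0901) in 3 of 3 mice. In the fit across all genes 14 of the 30 members were tested and all 14 were lower in each of the 4 classes, against 19.8% of all genes called lower in goblet-like, 18.1% in tuft-like, 22.2% in enteroendocrine-like and 31.5% in lymphocyte-like cells. These comparisons share their enterocyte-like sums, and so they are not independent. Without mouse 1, whose 7 lymphocyte-like cells carried few of the markers, 14 members were called in lymphocyte-like cells.

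The fold from the fit depends on the scaling. With TMM scaling the median log2 fold change of the 14 members was -3.66 in goblet-like, -3.71 in tuft-like, -4.14 in enteroendocrine-like and -4.87 in lymphocyte-like cells, larger than the share ratios above. DESeq2's size factors moved the median of all genes by -1.55, -1.17, -1.46 and -2.12 in the same order, and the share of higher among all calls from 50.7 to 10.3%, 51 to 16.1%, 52.9 to 17.2% and 51.1 to 17.8%, while all 14 members stayed lower. Over the 12 genes described singly, the DESeq2 medians were -5.10, -4.83, -5.50 and -7.06 in this order. With at most 40% mt- UMIs per cell they were -2.78, -2.71, -3.17 and -3.86. Within goblet-like cells mt-Rnr2 was at -3.16 ± 1.12 (adjusted p = 0.0206), a call lost under 7 alternatives, among them mouse 1, 2 or 3 left out, and kept under 10, and mt-Co1 at -4.00 ± 0.80 (adjusted p = 9.65e-05). In lymphocyte-like cells mt-Rnr2 was at -4.87 ± 1.21 (adjusted p = 0.000516) and mt-Co1 at -5.09 ± 0.84 (adjusted p = 1.27e-06).

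A large part of the enterocyte-like cells had most of their UMIs in mt- rows. The cluster of 3023 had a median mt- share of 67.2% and a median of 1176 UMIs, against 39.7% and 3068 UMIs in the cluster of 4671. It made up 14.6, 60.9, 28.3 and 43.5% of the enterocyte-like cells of mice 1 to 4. Without it the median log2 fold change over the 12 genes described singly was -3.15, -3.22, -3.64 and -4.38 in goblet-, tuft-, enteroendocrine- and lymphocyte-like cells, and 12, 13, 13 and 13 members were called lower. With the unnamed cluster of 1221 cells counted as enterocyte-like the medians were -2.75, -2.80, -3.23 and -3.94, and 10, 11, 13 and 13 members were called lower. The 14 enterocyte markers summed to 2.52 to 4.55% of UMIs outside the mt- rows in the unnamed cells and to 1.88 to 3.52% in the enterocyte-like cells. Nuclear RNA also stood higher in enterocyte-like cells, where the 5 quality RNAs held 0.529 to 0.935% of UMIs outside the mt- rows against 0.15 to 0.328% in goblet-like cells, though 0.806 to 1.40% in tuft-like cells. In cells of over 5000 UMIs the mt- share was 38.5% in enterocyte-like, 18.2% in goblet-like and 16% in tuft-like cells.

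The ribosomal RNAs led the mt- sum in each class. mt-Rnr2 held 55.0 to 57.5% of it in enterocyte-like, 56.4 to 62.0% in goblet-like, 51.5 to 56.1% in enteroendocrine-like and 50.7 to 52.9% in tuft-like cells. Of 12 genes compared with enterocyte-like cells, 2 passed in tuft-like cells, where mt-Rnr2 was lower (52.0 against 55.9%) and mt-Nd5 higher (1.36 against 1.01%), and 2 in enteroendocrine-like cells, where mt-Nd2 (1.95 against 1.26%) and mt-Nd5 (1.44 against 1.01%) were higher (exact permutation test, two-sided, unadjusted p = 0.0286 each, the smallest that 4 against 4 mice allow). In goblet-like and lymphocyte-like cells 0 of 12 passed. Within mice, goblet-like cells had a lower part than enterocyte-like cells in 4 of 4 for mt-Co2 (mean ratio 0.409), mt-Atp8, mt-Co1 (0.622) and mt-Nd1 (0.704), among others. Plasma or B-like cells, which were not tested, had a higher part in 3 of 3 mice for mt-Cytb (1.86), mt-Nd1 (1.69) and mt-Nd4l (1.61).

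The nuclear subunits were counted in the same fits. Of 34 nuclear complex I genes tested, 4 were lower and 1 higher in goblet-like cells, 4 and 2 in tuft-like, 9 and 0 in enteroendocrine-like and 17 and 0 in lymphocyte-like cells, with medians between -0.23 and -0.88. Of all genes, 19.8, 18.1, 22.2 and 31.5% were called lower in these classes, so the goblet-like and tuft-like counts were below that background. Atp5b, the catalytic subunit of complex V, was lower in goblet-like (-1.45 ± 0.44, adjusted p = 0.00747), enteroendocrine-like (-1.64 ± 0.46) and lymphocyte-like cells (-1.83 ± 0.45), and stood at -1.04 ± 0.44 in tuft-like cells (adjusted p = 0.0605). Citrate synthase Cs was lower in all 4 classes, from -1.93 ± 0.42 in goblet-like to -3.20 ± 0.49 in enteroendocrine-like cells.

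The CD24 gate had a lower mt- share than the Epcam gate. In mouse 2, CD24 plates had 10.0 to 18.2% of UMIs in mt- rows (median 13.1%, 5 plates) and Epcam plates 29.9 to 42.7% (median 36.8%, 6 plates), with no overlap. The cell classes moved with the gate. Enterocyte-like cells made up 12.7% of 1337 CD24 cells and 82.1% of 1626 Epcam cells, lymphocyte-like cells 548 and none, enteroendocrine-like cells 15.8% and 0.554%, and tuft-like cells 12.8% and 0.615%. Within enterocyte-like cells the mt- share was 58.0% in the CD24 gate (170 cells) and 44.2% in the Epcam gate (1335 cells), the other direction from that of the plates. Of 15 members tested, 14 were lower on CD24 plates, against 29.3% of all genes, with mt-Rnr2 at -2.29 ± 0.36 (adjusted p = 2.05e-05) and mt-Co1 at -2.37 ± 0.32 (adjusted p = 3.18e-06), while mt-Atp6 stood at -0.66 ± 1.24 (adjusted p = 0.661). Plates of 1 mouse are not separate animals, so these p-values cover the spread between plates only. On the same plates 23 of 34 nuclear complex I genes, 9 of 9 of complex III, 10 of 11 of complex IV and 12 of 15 of complex V were lower, and Cs fell by 2.28 ± 0.20.

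The gates of mouse 3 overlapped in their plate ranges, as did those of mouse 4. In mouse 3, CD45Epcam plates had 33.4 to 37.1% and onlyEpcam plates 27.2 to 35.1%, and mt-Nd5 was higher on the former (0.47, adjusted p = 0.0402), 1 of 16 tested against 4.8% of all genes. That call was lost when any of 8 of the 10 plates was left out, and 3 members were called without either of the other plates (CD45Epcam plate 2 or onlyEpcam plate 5). In mouse 4, CD54Epcam plates had 30.1 to 36.0% and onlyEpcam plates 27.9 to 37.8%, with 0 of 15 called by edgeR or DESeq2 (0 at an unadjusted p under 0.05), against 0.125% of all genes. In wells of 1000 to 3000 UMIs the median log2 fold change over the 12 genes described singly was 1.11 in mouse 3 (0.62 to 1.70) and -0.94 in mouse 4 (-1.91 to -0.41). Plates with no gate given had 32.0 to 41.8% in mouse 1 and 44.5 to 64.5% in mouse 2, the latter with no overlap with the Epcam plates of mouse 2, and mouse 2 also had the largest part of its enterocyte-like cells in the cluster of higher mt- share. Of the plates of mouse 2 with no gate given, 3 were labelled 4 months, while its Epcam plates were labelled 3 months, so age differs along with the gate label.

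Larger clumps and pairs were not told apart. Mice 1, 4 and 5 had 7.14, 6.47 and 25.6% of UMIs in mt- rows in larger clumps, and mice 1 to 5 had 7.35, 9.01, 7.37, 21.4 and 24.8% in pairs. Mouse 4 alone moved, from 21.4% in pairs with a median of 900 UMIs per well to 6.47% in larger clumps with 7594. With edgeR 0 of 16 members tested were called (1, mt-Co2, at an unadjusted p under 0.05, and 0 by DESeq2), against 0% of all 10061 genes, of which 512 had an unadjusted p under 0.05. With the mouse as a block 0 were called, against 0.547% of all genes.

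Clumps and single cells differed in level and in makeup. The mt- share per mouse was 7.21, 9.01, 7.37, 6.94 and 25.5% in clump mice 1 to 5 and 36.3, 33.3, 32.5 and 33.6% in cell mice 1 to 4, with no overlap. Of 20 members tested, 2 were lower in clumps, against 4.01% of all genes: mt-Nd5 (-2.77 ± 0.56, adjusted p = 0.0191) and the transfer RNA mt-Tl1 (-3.04 ± 0.45, adjusted p = 0.00487). The mt-Tl1 row was small, with 123 UMIs in clumps and 542 in cells. mt-Rnr1 stood at -2.75 ± 0.90 (adjusted p = 0.0947) and mt-Rnr2 at -2.89 ± 0.95 (adjusted p = 0.0972), and 10 members had an unadjusted p under 0.05. Without clump mouse 5, 7 members were called, and without clump mouse 1 or 3, 1. DESeq2 called 10. With pairs of the mid-villus and tip zones set against enterocyte-like cells of those zones, 14 of 17 members were called lower, and the median log2 fold change over the 12 genes described singly was -3.00, against -1.85 over all classes with scaling from UMIs outside the mt- rows. These medians differ in the scaling as well as in the wells used.

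As parts of the mt- sum, mt-Rnr2 was lower in clumps (39.3% ± 11.3 against 55.2% ± 0.862), and mt-Nd1 (8.14% ± 3.31 against 2.75% ± 0.551), mt-Cytb (11.0% ± 3.79 against 3.76% ± 0.807) and mt-Nd4l (7.33% ± 2.96 against 4.03% ± 0.626) were higher. The exact permutation test over mice (two-sided, unadjusted, 12 genes compared) gave p = 0.0159 for the first 3 genes, the smallest that 5 against 4 mice allow, and 0.0476 for mt-Nd4l. Without clump mouse 5 the clump values were 37.5% ± 12.1, 8.99% ± 3.12, 10.5% ± 4.16 and 8.13% ± 2.71, and each of the 4 genes had p = 0.0286 by the same exact test, the smallest that 4 against 4 mice allow. The tables differ in dissociation and sort, and possibly in mice, and these cannot be told apart.

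**Figure D4:**
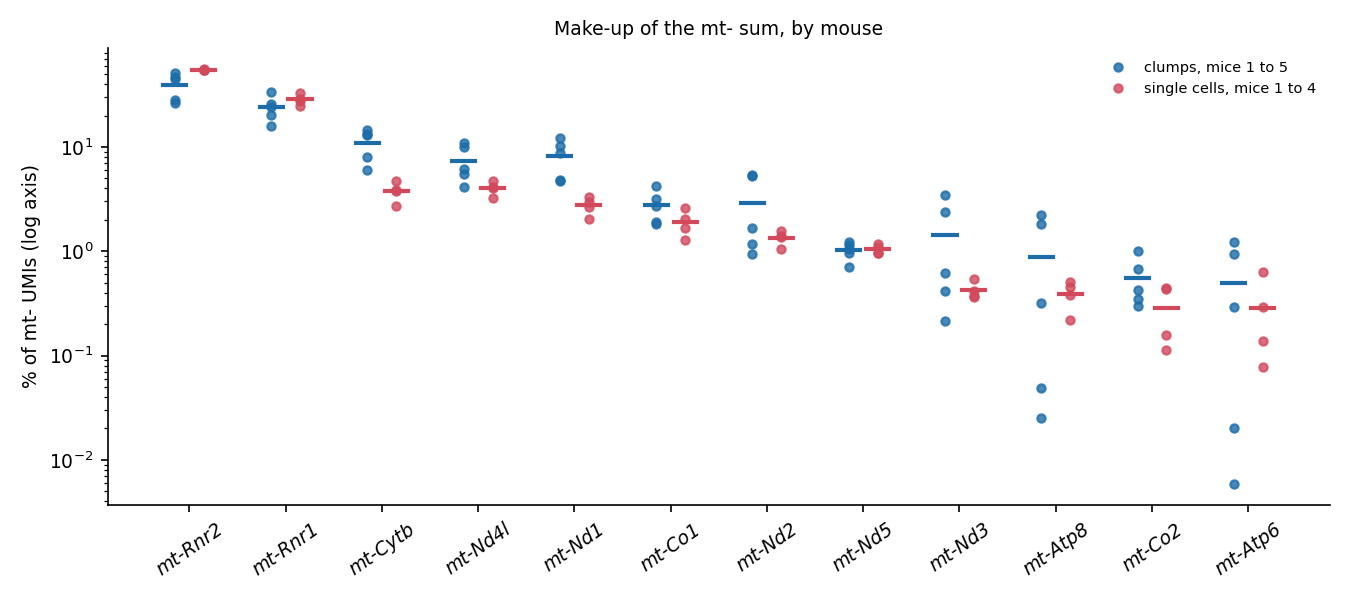
Percent of the mt- sum held by each of the 12 genes described singly in clumps (5 mice) and single cells (4 mice), on a log axis, with bars at the means. mt-Nd1 and mt-Cytb take a larger part and mt-Rnr2 a smaller part in clumps, and the clump mice spread widely for mt-Atp8, mt-Atp6 and mt-Nd3.

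Pooled over mice and classes, which differ in depth and share, the mt- share was lower in deeper wells. In clumps it was 20.0% in wells of over 500 and up to 1000 UMIs and 7.55% in wells of over 5000, and in cells 40.7% and 29.1%. Within classes it was 56.9% and 38.5% in enterocyte-like cells, but 17.9% and 18.2% in goblet-like cells. In lymphocyte-like cells it was 10.4% in wells of over 500 and up to 1000 UMIs and 10.9% in those of over 2000 and up to 5000. A limit on the mt- share, as used in the study for its own analyses, bears unevenly on the groups. Over 30% mt- UMIs were found in 1048 of 7689 clumps (13.63%), in 46.6% of the h2n gate, 10.4% of larger clumps and 9.31% of pairs. Over 40% were found in 5250 of 11610 cells (45.22%), in 54.8% of Epcam and 11.7% of CD24 cells of mouse 2. In mouse 1 they were found in 69.9% of 249 cells sorted for EpcamLow with high Cd24 and in 0 of 41 sorted for Epcam with low Cd24. Among cells with no gate given the part was 60.7%.

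The nuclear genes whose share of non-mt UMIs went most with the mt- share over plates differed between the tables. Over the 45 clump plates, of 2526 genes above a minimum mean level, they were the ribosomal RNA row Rn18s-rs5 (Spearman rho 0.77), Gm42726 (0.72), Gm20594 (0.64), Gm42418 (0.63) and Gm11407 (0.62). Gm11407 aligns to mt-Nd5 at 92.3% identity, below the limit used for copies. Over the 44 cell plates, of 1875 genes, they were the copies Gm29216 (0.68), Gm28661 (0.65), Gm28438 (0.65) and Gm10925 (0.64), followed by Gm11407 (0.64). The lowest were Rpl28 (-0.84) and Atp5b (-0.81) in clumps and Pfdn5 (-0.79) in cells. Plates of a mouse and gate share animals and sort, so these correlations are a description only.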

How the data were processed

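The authors sorted clumps and single cells into 384-well plates, primed RNA with poly(T) in the MARS-seq protocol, mapped reads of 66 bases to GRCm38 with STAR through zUMIs and deposited raw UMI counts per gene and well. Counts were used as deposited. UMIs were summed per mouse (per plate for gates of 1 mouse) and tested with edgeR 4.0.16 (TMM, filterByExpr, quasi-likelihood, Benjamini-Hochberg over all genes) in R 4.3.3. Shares of the mt- sum were compared by exact permutation over mice. Cells were clustered by Leiden (resolution 0.1, 20 neighbours, 30 components, 2000 genes). Nuclear copies were found with BLAST 2.17.0 against annotated transcripts. The members, zones and gene lists were chosen with earlier results of these data known. The 12 genes with at least 0.1% of the mt- UMIs were described singly, and of each nuclear list the 2 genes of highest mean level were named for tip against crypt, and for other comparisons only some of them. Zones, classes and gates of a mouse share the animal, which is where the pairing comes from. Deviations of same-mouse sums correlated at 0.19 to 0.59 between zones of clumps. On simulated counts for tip against crypt (6294 genes, 200 changed), the fit recovered 73% of genes changed 2-fold and 100% of those changed 4-fold. These counts had the same dispersion for all genes and no differences between mice, and only abundant genes were changed. The rates therefore do not carry over to the members, as mt-Rnr1 at 2.88-fold was not called in the real fit. Each mouse number was taken as 1 animal, although cell mouse 2 holds plates labelled 3 and 4 months and the labels do not say whether they are of 1 animal. The alternatives tried are given with their values in the closing section.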

Additional observations from a re-analysis of the deposited data

Results flagged for a closer look

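Of 206 groups of 4 to 10 samples tested, 24 had a sample far from the others by Dixon's test, which chance flags in about 1 of 20 groups. All percentages are of all UMIs unless another base is named. Clump mouse 5 was flagged most. Over all its clumps it had 25.5% in mt- rows (others 6.94 to 9.01%), 11.9% in mt-Rnr2 (1.94 to 4.03%), 3.35% in mt-Cytb (0.542 to 1.05%) and 0.18% in mt-Nd5 (0.0722 to 0.0882%). In its crypt clumps it had 20.4% in mt- rows (5.01 to 6.69%), 8.7% in mt-Rnr2 (1.25 to 3.4%), 4.86% in mt-Rnr1 (0.975 to 1.6%), 3.34% in mt-Cytb (0.421 to 0.854%) and 0.16% in mt-Nd5 (0.0594 to 0.0713%). Its mid-villus clumps had 24.7% in mt- rows (7.67 to 11.5%) and 6.35% in mt-Rnr1 (2 to 2.84%), and its tip clumps 25.7% in mt- rows (10.1 to 13.6%).

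Among single cells, the enterocyte-like cells of mouse 1 had 0.782% in mt-Nd1 (others 1.26 to 1.33%) and 0.372% in mt-Nd5 (0.47 to 0.489%). Its goblet-like cells had 6.91% in mt-Rnr1 (4.42 to 4.56%) and 11.3% in mt-Rnr2 (9.33 to 9.58%). Lymphocyte-like cells of mouse 3 had 11.1% in mt- rows (9.01 to 9.26%) and 6.17% in mt-Rnr2 (5.08 to 5.09%). In mouse 4, 9 enteroendocrine-like cells had 0.145% in mt-Atp6 (0.00955 to 0.0296%), and the 5 cells of the cluster led by haemoglobin genes had 0.0892% in mt-Nd3 (0.0223 to 0.0311%). Mid-villus enterocyte-like cells of mouse 4 had 77.4% of the mt- sum in the ribosomal RNAs (82.3 to 83%), and those of mouse 3 had 0.161% in mt-Nd3 (0.213 to 0.221%). Among plates, plate 6 of the larger clumps of mouse 4 had 13.2% in mt- rows (4.11 to 6.14%), and plate 5 of mouse 1 with no gate given had 72.2% of the mt- sum in the ribosomal RNAs (88.1 to 90.5%).

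The tip against mid-villus difference of mt-Rnr2 was larger in clumps than in enterocyte-like cells by 0.349 on the log2 scale (exact permutation test, two-sided, unadjusted p = 0.0476, 5 against 4 mice, 12 genes compared). Wells with over 100 and up to 500 UMIs, which no comparison used, had 22.2% of UMIs in mt- rows in clumps (4959 wells) and 45.4% in cells (2605 wells).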

How the results depend on the processing

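Counts here are of members called by edgeR at an adjusted p under 0.05. For tip against crypt clumps (2), the count was 1 with DESeq2 size factors, with DESeq2, with at most 30% mt- UMIs, in wells of 1000 to 3000 UMIs, in pairs only and with zones drawn without Malat1, and 1 to 6 with a mouse left out. With the mouse as a replicate block (paired by animal) it was 11, for mid-villus against crypt 7 in place of 0, and for tip against mid-villus enterocyte-like cells 4 in place of 0, and the block changed no other count by over 1.5 times. Mid-villus against crypt gave 0 to 1 with a mouse left out. For tip against mid-villus enterocyte-like cells the count was 1 with DESeq2 size factors, with DESeq2 and with no filter on low counts, and 12 with the largest unnamed cluster counted as enterocyte-like. With no filter, tuft-like cells gave 23 and lymphocyte-like cells 26 in place of 14, since more members were tested. For the gates of mouse 3 (1) the count was 0 with DESeq2 size factors, with scaling by UMIs outside the mt- rows, with copies added and in wells of over 1000 UMIs, 2 in wells of over 500 UMIs outside the mt- rows, 5 with no filter, 6 in wells of 1000 to 3000 UMIs, and 0 to 3 with a plate left out. For clumps against cells (2) it was 10 with DESeq2, 8 in wells of 1000 to 3000 UMIs, 14 for mid-villus and tip pairs against mid-villus and tip enterocyte-like cells, and 1 to 7 with a mouse left out. In goblet-like cells 2 genes in place of 0 differed in their share of the mt- sum when shares were averaged over wells. The calls of ribosomal RNAs were also lost in goblet-like cells (mt-Rnr2 under 7 alternatives, mt-Rnr1 under 4) and tuft-like cells (3 each). The cause of these changes was not tested unless named. Of the values of single genes, 2437 stayed on their side of the threshold (121 of them, not called, with the other sign), 75 passed it, 44 lost it and 0 turned a called direction. The added copies, the wells of 1000 to 3000 UMIs and both changes of enterocyte-like clusters were chosen after seeing the data. Rows of few UMIs, such as the transfer RNAs, limit what could be tested.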

Other observations

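Clump mouse 6 was the only animal of the h2n gate and entered no comparison. Its mt- share was 23.2% in the crypt zone (135 wells), 28.1% at mid-villus (99 wells) and 40.1% at the tip (342 wells), and the ribosomal RNAs held 76.9, 79.4 and 88.3% of the mt- sum. The plates of cell mouse 1 sorted for EpcamLow with high Cd24 had 6.86 and 63.7% of UMIs in mt- rows, and its plate sorted for Epcam with low Cd24 had 5.56%.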
